A study of Arabidopsis thaliana with 6 samples.

Results

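The ATG genes encode the core machinery of autophagy, and 8 of them were followed here in Arabidopsis seedlings carrying 35S-PaWRKY1 and in empty-vector seedlings. Members were single-gene probe sets whose current gene symbol starts with ATG and a digit. This gave 8 genes with 1 probe set each, ATG3 and the 7 genes ATG8B, ATG8C, ATG8D, ATG8E, ATG8F, ATG8G and ATG8H, out of 22746 probe sets tested. The symbols alone decided membership, but the family was selected on earlier results of these same 6 arrays. Those results are taken here to be its genotype differences and its spread over replicate numbers. Both are therefore given as descriptions, and the p-values printed with them are not independent evidence.

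The 35S-PaWRKY1 plants carry PaWRKY1, a member of the WRKY family of plant transcription factors, under the 35S promoter of cauliflower mosaic virus, which is active in most tissues. The control plants carry the empty vector pCAMBIA 1302. Each group gave 3 Affymetrix arrays of total RNA from whole seedlings, shoot with root, 7 days old after 2 days of seed vernalization, grown on full-strength MS medium. The labels call the arrays biological replicates; the number of transgenic lines and of sowings is not given in the sources used here, so a p-value here covers only the spread among these arrays, which may be partly technical. Because whole seedlings were extracted, fewer cells of a type and less RNA per cell cannot be told apart.

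Autophagy encloses cytoplasm in a membrane vesicle that is delivered to the vacuole and degraded there, and it recycles nutrients during starvation and senescence. ATG8 is a small ubiquitin-like protein that is attached to a membrane lipid and also recruits cargo receptors. The protease ATG4 trims ATG8, the E1-like enzyme ATG7 activates it, and the E2-like enzyme ATG3 transfers it to phosphatidylethanolamine. Arabidopsis has a family of ATG8 genes in separate clades; ATG8H and ATG8I belong to a clade whose proteins end in the reactive glycine and need no trimming.

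The symbol takes in part of the pathway. RefSeq lists 19 genes with such a symbol, of which 8 were matched to a probe set and 11 were not analysed here. The symbol ATG2 belongs to 2 of the 19, the autophagy gene and the gene also called EBP1, and 0 of these 2 were matched. APG8A and APG8H, on the other hand, are current symbols of ATG8A and ATG8I (APG8H is not ATG8H), and they are described below among the wider ATG loci. The ATG8 genes are close paralogs; whether their probe sets cross-hybridise was not tested.

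Every value is a log2 difference from the mean of the 3 empty-vector arrays for that probe set, not a transcript level. The empty-vector mean is therefore 0 for every gene, and levels of different ATG genes cannot be ranked. Base 2 and the direction, a higher value for more transcript, are taken by convention. The 6 array medians over all probe sets lay within 0.0601 of each other. Both arrays numbered 3 deviated alike from their groups: their deviations correlated by 0.453 across probe sets, the highest value of any pair across the groups.

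No ATG gene passed the test between genotypes, and the ATG genes lay on both sides of empty vector. In 35S-PaWRKY1 plants 6 of 8 had a mean below empty vector, ATG8F by the largest amount, and 2 lay above it, ATG8E and ATG8H. Of all probe sets, 60.5% had a mean below empty vector. The median difference was -0.10 over the 8 ATG genes and -0.037 over all probe sets. With 1 array left out the ATG median ran from -0.20, without empty-vector array 3, to -0.042, without 35S-PaWRKY1 array 3. With limma, adjusted over all probe sets, 0 of 8 genes passed 0.05 and 0 had an unadjusted p under 0.05; 0.0308% and 8.01% of all probe sets did so. Adjusted p for the 8 ran from 0.689 to 0.996.

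ATG3, the conjugating enzyme, read -0.010, -0.054 and -0.28 on 35S-PaWRKY1 arrays 1 to 3, against 0.077, 0.017 and -0.094 on empty-vector arrays 1 to 3. Array 3 was the lowest in both groups, and the 35S-PaWRKY1 arrays 1 and 2 fell within the empty-vector range. The difference was -0.11 (SE 0.104, n = 3 per group; limma adjusted p 0.832), and it was -0.032 without 35S-PaWRKY1 array 3.

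Among the ATG8 genes, ATG8F stood lowest in 35S-PaWRKY1 plants. Its values were 0.014, -0.46 and -0.71 on 35S-PaWRKY1 arrays 1 to 3, against 0.26, 0.14 and -0.40 on empty-vector arrays 1 to 3. The groups overlapped, since 35S-PaWRKY1 array 1 lay above empty-vector array 3. The difference was -0.39 (SE 0.236, 95% interval -0.95 to 0.17, limma adjusted p 0.732), and 5.91% of all probe sets had a difference of at least that size. It was -0.22 without 35S-PaWRKY1 array 3, and -0.59 without either 35S-PaWRKY1 array 1 or empty-vector array 3.

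ATG8C read -0.043, -0.23 and -0.37 in the 35S-PaWRKY1 group, against 0.10, 0.029 and -0.13 in the empty-vector group. Its arrays 2 and 3 of the 35S-PaWRKY1 group were below every empty-vector array, and its array 1 was not. The difference of -0.21 (SE 0.117, 95% interval -0.49 to 0.062) had the lowest adjusted p of the 8 genes, 0.689 in limma. Without 35S-PaWRKY1 array 3 it was -0.14.

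ATG8G had -0.0033, -0.10 and -0.28 on the 35S-PaWRKY1 arrays, against 0.11, 0.057 and -0.17 on the empty-vector arrays. This is the same order of arrays as in ATG3, ATG8C and ATG8F, at a difference of -0.13 (SE 0.116). That difference was -0.052 without 35S-PaWRKY1 array 3, -0.073 without empty-vector array 1 and -0.21 without empty-vector array 3. ATG8B had -0.054, -0.14 and -0.080 on the 35S-PaWRKY1 arrays, against 0.11, 0.076 and -0.19 on the empty-vector arrays. All 3 of its 35S-PaWRKY1 values lay between empty-vector arrays 2 and 3, with a difference of -0.093 (SE 0.106). Leaving out empty-vector arrays 1, 2 or 3 gave -0.036, -0.055 and -0.19.

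ATG8D showed almost no difference of means, -0.0082 (SE 0.205, 95% interval -0.49 to 0.48), but the groups differed in spread. Its 35S-PaWRKY1 arrays held -0.051, 0.019 and 0.0078, an SD of 0.0374, against 0.15, 0.34 and -0.49 on the empty-vector arrays, an SD of 0.433. Only 5.70% of all probe sets had an empty-vector SD of at least that size. The sign of its difference turned in 4 of 12 alternative settings, among them a centring of the arrays on their medians, which gave 0.028.

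ATG8E, whose protein is much used to mark autophagosomes, had the highest mean in 35S-PaWRKY1 plants. It read 0.73, 0.11 and -0.048 on the 35S-PaWRKY1 arrays, against 0.32, 0.026 and -0.35 on the empty-vector arrays. Array 1 of the 35S-PaWRKY1 group was the single value above the empty-vector range. The difference was 0.26 (SE 0.245, 95% interval -0.32 to 0.84, limma adjusted p 0.836), and without that array it was 0.029. It was 0.090 without empty-vector array 3, 0.42 without empty-vector array 1 and 0.42 without 35S-PaWRKY1 array 3.

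ATG8H, of the clade that needs no trimming, had 0.37, 0.45 and -0.33 on the 35S-PaWRKY1 arrays, against 0.11, 0.15 and -0.26 on the empty-vector arrays. Arrays 1 and 2 of the 35S-PaWRKY1 group were above every empty-vector array and array 3 was below every one. The difference was 0.16 (SE 0.226, limma adjusted p 0.891), 0.41 without 35S-PaWRKY1 array 3, 0.060 without array 1 of that group, 0.019 without its array 2 and 0.034 without empty-vector array 3.

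**Figure D1:**
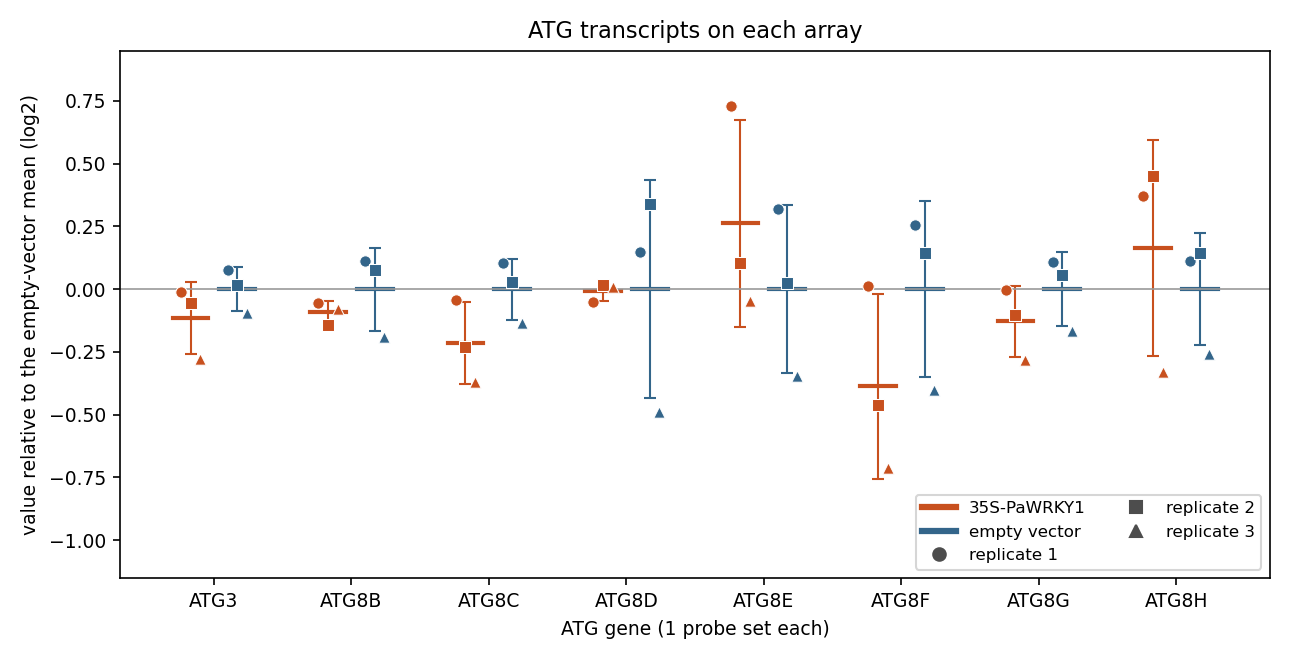
Values of the 8 ATG genes on each of the 6 arrays (y axis: log2 relative to the empty-vector mean; circles, squares and triangles are replicates 1, 2 and 3; bars are group means with SD, n = 3). The groups overlap in all 8 genes, and the empty-vector triangle is the lowest empty-vector point in each.

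In 0 of 8 ATG genes were the 2 groups without overlap, against 14.5% of all probe sets. Within-group SDs ran from 0.0374 to 0.430 in the 35S-PaWRKY1 group and from 0.0866 to 0.433 in the empty-vector group. Their medians were 0.154 and 0.195 over the ATG genes, against 0.118 and 0.148 over all probe sets. For ATG8E, ATG8F and ATG8H the SD in both groups exceeded 0.2, and the genotype difference of ATG8E and ATG8H was smaller than either SD.

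The ATG genes stood low on the number 3 array of each group. Array 3 was the lowest of the 35S-PaWRKY1 arrays for 6 of 8 genes and the lowest of the empty-vector arrays for 8 of 8. Over all probe sets these shares were 41.3% and 34.2%. Array 3 was lowest in both groups at once for 6 of 8 ATG genes and 19.0% of all probe sets. The exceptions in the 35S-PaWRKY1 group were ATG8B, whose lowest array was number 2, and ATG8D, whose lowest was number 1.

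The size of this shift was set against arrays 1 and 2 of the same group. Array 3 minus their mean had a median of -0.24 over the ATG genes in the 35S-PaWRKY1 group and -0.34 in the empty-vector group, while the medians over all probe sets were -0.022 and 0.021. In the 35S-PaWRKY1 group it was -0.74 for ATG8H, -0.49 for ATG8F, -0.47 for ATG8E and -0.24 for ATG3. The same quantity in the empty-vector group was -0.39 for ATG8H, -0.60 for ATG8F, -0.52 for ATG8E and -0.14 for ATG3. ATG8D and ATG8B were at 0.024 and 0.019 in the 35S-PaWRKY1 group, against -0.73 and -0.28 in the empty-vector group.

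Averaged over the 8 genes, the 35S-PaWRKY1 arrays stood at 0.12, -0.052 and -0.26 for numbers 1 to 3 and the empty-vector arrays at 0.16, 0.10 and -0.26. Both number 3 arrays thus had about the same mean. All 8 genes were below 0 on empty-vector array 3 and 7 of 8 on 35S-PaWRKY1 array 3, the exception being ATG8D. Centring on the empty-vector mean forces the 3 empty-vector values of a gene to sum to 0, so a low array 3 there goes with higher arrays 1 and 2. What the number stands for is not given in the sources used here, and its part in the genotype comparison was not tested beyond the fits with and without it.

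**Figure D2:**
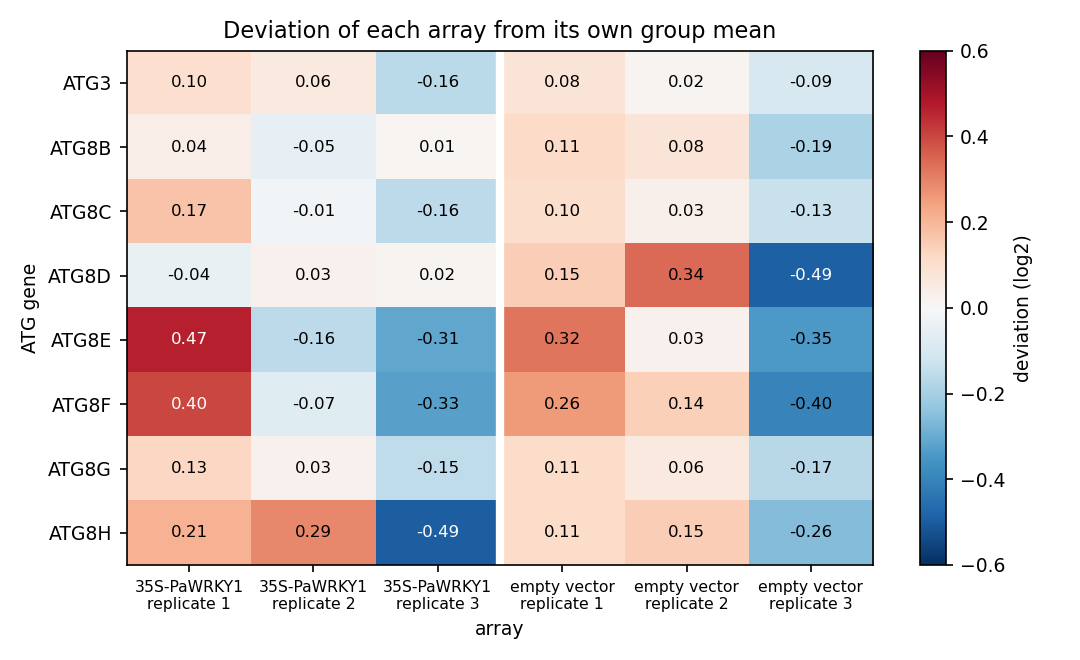
Deviation of each array from the mean of its own group (colour and printed number, log2) for the 8 ATG genes (rows) on the 35S-PaWRKY1 arrays (left 3 columns) and the empty-vector arrays (right 3 columns). The empty-vector replicate 3 column is below its group mean in all 8 genes; the 35S-PaWRKY1 replicate 3 column is so in 6, ATG8B and ATG8D being the exceptions.

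Taken within a replicate number, 35S-PaWRKY1 minus empty vector kept 1 sign at all 3 numbers for 5 of 8 ATG genes, as it did for 34.0% of all probe sets. ATG8F was at -0.24, -0.60 and -0.31 for numbers 1, 2 and 3, and ATG8C at -0.15, -0.26 and -0.24. ATG3 and ATG8G were also below at each number, between -0.18 and -0.071. ATG8E was above at each number, at 0.41, 0.080 and 0.30. ATG8B, ATG8D and ATG8H were on one side for numbers 1 and 2 and on the other for number 3, with ATG8D at -0.20, -0.32 and 0.50.

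With the replicate number as a block, the SE of ATG8F was 0.108 in place of 0.236 and that of ATG8E 0.103 in place of 0.245. Their 95% intervals were then -0.65 to -0.12 for ATG8F and 0.0077 to 0.52 for ATG8E, both on 1 side of 0 before adjustment. The intervals of the other 6 spanned 0 with the block as well. The differences themselves do not change with the block. At an unadjusted p under 0.05 in limma there were then 2 of 8 ATG genes, ATG8F (0.0126) and ATG8E (0.0453), beside 10.8% of all probe sets. Adjusted over all probe sets, 0 of 8 passed with the block, beside 0.0264%, and the lowest adjusted p was 0.322, for ATG8F.

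Without both number 3 arrays, 6 of 8 ATG genes were below empty vector as with them. ATG8F was then at -0.42, ATG8C at -0.20, ATG8B at -0.19 and ATG8D at -0.26, and ATG8E and ATG8H were at 0.25 and 0.28. The adjusted p in limma stayed at or above 0.558 for all 8.

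**Figure D3:**
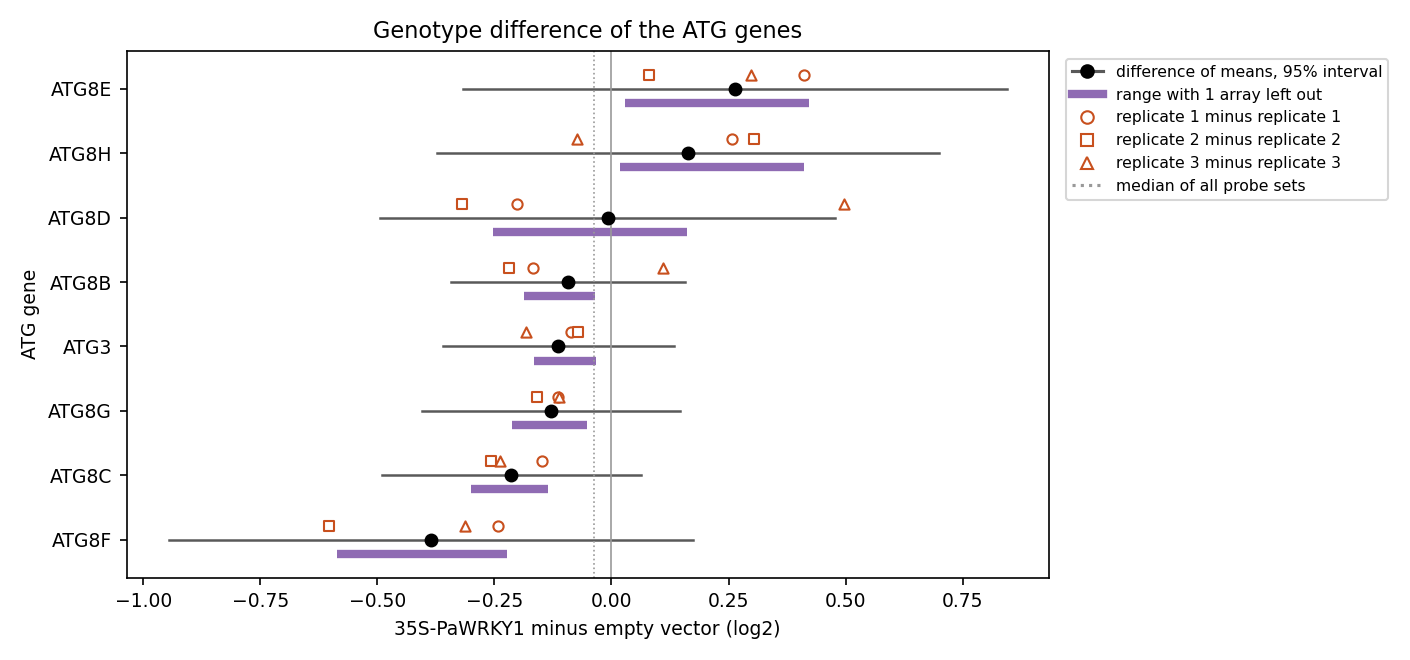
Difference of 35S-PaWRKY1 minus empty vector (x axis, log2) for each ATG gene: black points with 95% intervals of the limma fit without the block, violet bars for the range when 1 array is left out, open symbols for the difference within each replicate number. Each interval spans 0; the open symbols of ATG8F, ATG8C, ATG8G and ATG3 are all left of 0 and those of ATG8E all right of it.

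By locus rather than by symbol, the array covered more of the pathway. Of 39 listed ATG loci, 19 genes were matched, with 21 probe sets, and the 11 genes outside the symbol rule had 13 of these. In limma 0 of these 13 were called higher and 0 lower over all probe sets, with adjusted p from 0.589 to 0.986 and 1 unadjusted p under 0.05 (8.01% of all probe sets). With the replicate number as a block, 0 of 13 had such an unadjusted p, beside 10.8% of all probe sets. The 13 probe sets had 6 differences above and 7 below empty vector and a median of -0.017. The loci named here were chosen after their values were seen. ATG8A and ATG8I, the other members of the ATG8 family, were at 0.027 (SE 0.106) and -0.017 (SE 0.125).

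ATG101, annotated under AT5G66930 and known as a subunit of the kinase complex that starts autophagy, was the highest of the listed loci. It read 0.31, 0.22 and 0.37 on the 35S-PaWRKY1 arrays, against -0.095, 0.28 and -0.19 on the empty-vector arrays. Empty-vector array 2 lay inside the 35S-PaWRKY1 range, and the difference was 0.30 (SE 0.137, limma adjusted p 0.644). The listed locus AT1G49180 was the single one without overlap, which 14.5% of all probe sets also showed, at -0.13, -0.33 and -0.26 on the 35S-PaWRKY1 arrays, against -0.084, 0.018 and 0.065 on the empty-vector arrays. Its difference was -0.24 (SE 0.0929, limma adjusted p 0.589).

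The other listed loci were divided on array 3. It was the lowest of the 35S-PaWRKY1 arrays for 4 of the 13 probe sets and the lowest of the empty-vector arrays for 3 of 13, beside 41.3% and 34.2% of all probe sets. It was lowest in both groups for 2 of 13, beside 19.0%. These were ATG8A, at -0.087 on 35S-PaWRKY1 array 3 and -0.16 on empty-vector array 3, and AT3G18770, at -0.20 on 35S-PaWRKY1 array 3 and -0.17 on empty-vector array 3. Both probe sets of AT2G37840 were highest on array 3 in both groups, at 0.73 and 0.35 on 35S-PaWRKY1 array 3 and 0.72 and 0.55 on empty-vector array 3. The difference between these loci and the 8 ATG genes in this respect was not tested.

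The kinases upstream of autophagy are TOR, which represses it when nutrients are ample, and SnRK1, which promotes it under energy shortage. Of 12 listed genes 4 were matched, partners of TOR and beta subunits of SnRK1, with neither TOR nor a SnRK1 catalytic subunit. All 4 lay below empty vector and 0 were called in either direction or had an unadjusted p under 0.05 in limma. Of all probe sets, 60.5% lay below, 0.0308% were called and 8.01% had such a p. With the replicate number as a block, 1 of 4 had such a p, beside 10.8% of all probe sets, and 0 were called. AKINBETA1, a beta subunit of SnRK1, read 0.19, -0.54 and -0.91 on the 35S-PaWRKY1 arrays, against 0.21, 0.061 and -0.27 on the empty-vector arrays. Like ATG8F, it was lowest on array 3 in both groups; its difference was -0.42 (SE 0.28, limma adjusted p 0.76). The TOR partners RAPTOR1 and RAPTOR2 were at -0.057 (SE 0.248) and -0.054 (SE 0.115), and KINbeta2 (AT4G16360) at -0.092 (SE 0.132). These 3 were highest on array 3 in both groups, unlike AKINBETA1. Of 15 listed partners and receptors 2 were matched, AT2G32760 at -0.18 (SE 0.143) and AT4G34660 at 0.17 (SE 0.12), with 0 called and 0 at an unadjusted p under 0.05 in limma.

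Vacuolar proteases degrade what autophagy delivers, and 9 of 11 listed genes were matched. None was called by limma over all probe sets, with 0 higher and 0 lower; 2 of 9 had an unadjusted p under 0.05, and 6 lay above and 3 below empty vector with a median of 0.13. Over all probe sets 0.0308% were called, 8.01% had such a p, 60.5% lay below and the median was -0.037. Blocking on the replicate number gave 3 of 9 proteases with such a p, beside 10.8% of all probe sets, and 0 called. These 3 were BETA-VPE, GAMMA-VPE and DELTA-VPE, while the 2 without the block were BETA-VPE and APA1. The vacuolar processing enzymes, cysteine proteases that activate other vacuolar proteins, were all above empty vector in 35S-PaWRKY1 plants. BETA-VPE, known mainly from seeds, read 0.22, 0.53 and 0.64 on the 35S-PaWRKY1 arrays, against -0.17, 0.13 and 0.036 on the empty-vector arrays. These groups did not overlap, at a difference of 0.46 (SE 0.138, limma adjusted p 0.459).

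GAMMA-VPE, a form of vegetative tissue, read 0.25, 0.35 and 0.21 on the 35S-PaWRKY1 arrays, against 0.042, 0.16 and -0.21 on the empty-vector arrays, again without overlap. Its difference was 0.27 (SE 0.115, limma adjusted p 0.622). DELTA-VPE was at 0.40 (SE 0.207) and ALPHA-VPE at 0.21 (SE 0.203), both with overlapping groups. The aspartic protease gene APA1 went the other way without overlap, at -0.19 (SE 0.0783, limma adjusted p 0.62). Groups without overlap were thus found for 3 of 9 proteases, beside 14.5% of all probe sets. The other 4 proteases, AT1G62290, AT4G04460, AT1G02305 and AT4G01610, were between -0.11 and 0.13.

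**Figure D4:**
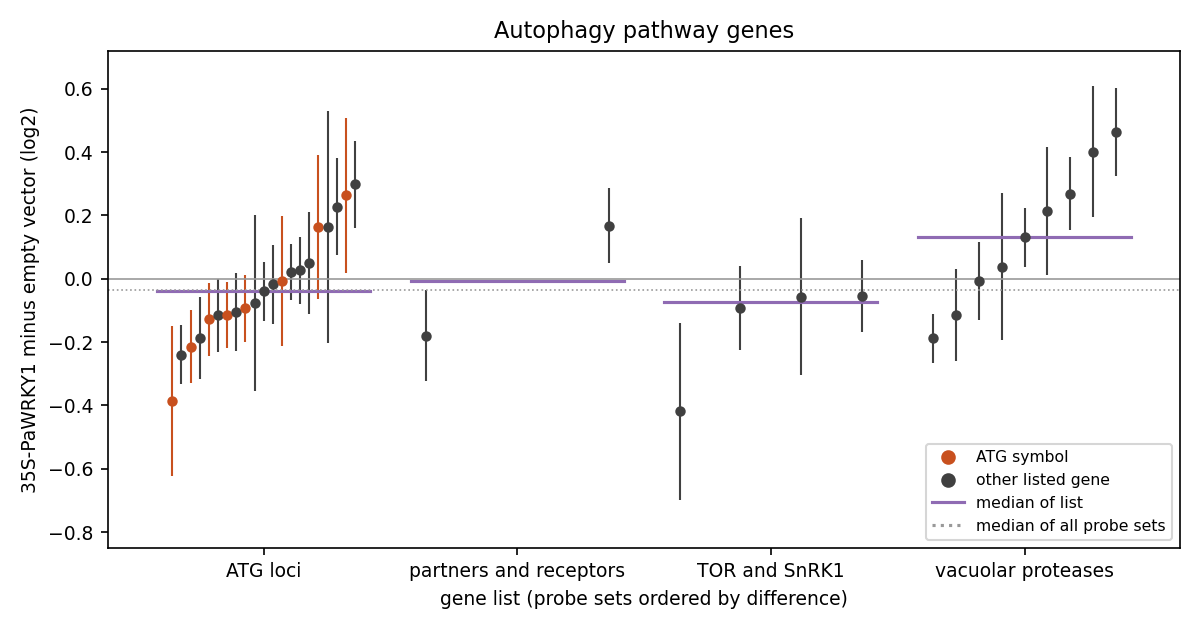
Difference of 35S-PaWRKY1 minus empty vector (y axis, log2, with SE of the limma fit) for each probe set of 4 gene lists, ordered within a list; orange marks the 8 genes with an ATG symbol and violet lines the list medians. The ATG loci spread on both sides of 0 between -0.39 and 0.30, and the protease median is 0.13.

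Of 13 listed genes of carbon starvation and senescence 0 were matched to a probe set, and of 6 leaf markers also 0, so neither is analysed here. Of 8 root markers 2 were matched. PYK10, a beta-glucosidase of root ER bodies, was at 0.25 (SE 0.176) and the root hair expansin EXPA7 at -0.037 (SE 0.137), with limma adjusted p of 0.774 and 0.97. Since the values carry no level, the presence of root or shoot transcripts cannot be read from them.

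Among 1572 other single-gene probe sets with a gene name, the 3 whose values over the 6 arrays were most like the mean of the ATG genes were CLE41, PS1 and ETFBETA. Their Pearson correlations with that mean were 0.984, 0.972 and 0.967 over 6 arrays, given as a measure of likeness only. CLE41 encodes a peptide signal of vascular tissue, PS1 a presenilin and ETFBETA a mitochondrial electron carrier. CLE41 read 0.18, 0.038 and -0.29 on the 35S-PaWRKY1 arrays, against 0.22, 0.10 and -0.32 on the empty-vector arrays. Array 3 was lowest in both groups of all 3 genes. They were picked for likeness to the ATG mean, which is low on array 3, so this is not separate evidence. Their genotype differences were -0.022, -0.025 and -0.0035.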

How the data were processed

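Biotin-labelled RNA of 6 samples, 3 per genotype, was hybridised to Affymetrix arrays, per the labels' protocols. The deposited values are log2 values by convention; MAS5 and RMA are named in the submitters' processing notes, without role or version. In the file, the empty-vector arrays of every probe set average to 0 (largest absolute mean 1.3e-06), so no filter on dim probe sets was possible. Depth has no counterpart on arrays; their number limits the precision.

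Of 22810 probe sets, 64 Affymetrix controls were left out. Genes came from GEO's platform annotation, updated by gene ID to RefSeq TAIR10.1 symbols: 13513 probe sets had 1 gene, 503 several and 8730 none given. Updating changed 0 of the 8 member symbols.

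Values as deposited were fitted across all probe sets in R 4.3.3 by limma 3.58.1 (lmFit, then eBayes). Tests were two-sided with Benjamini-Hochberg adjustment at a threshold of 0.05. SE and 95% intervals came from the moderated fit. The fit was checked on simulated data with independent noise on each array. That check left out the correlation of same-numbered arrays, and power for differences of the size seen here is not judged from it. Figures used matplotlib 3.10.9 in Python 3.11.15. Members and lists were chosen with earlier results of these data known. Genes named were all members, all matched genes of the pathway lists and root markers, and the 3 genes most like the member mean. Of the wider ATG loci, those named were chosen after their values were seen.

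Deviations from group means of same-numbered arrays correlated by 0.314, 0.194 and 0.453 across probe sets, each above 0.1. By that criterion the numbers were taken to pair the arrays, which no label states. The main fit had been set without the block, so its SE, intervals and p-values leave the pairing out. Blocked intervals are given above for ATG8F and ATG8E only, and blocked counts for the lists. With the block the interval was -0.78 to -0.056 for AKINBETA1, 0.031 to 0.51 for GAMMA-VPE and 0.12 to 0.68 for DELTA-VPE. Without it each of these spanned 0. The blocked intervals of APA1 (-0.41 to 0.031) and AT1G49180 (-0.50 to 0.016) spanned 0, and those without the block did not. Arrays of unlike number correlated by at most 0.171. Alternatives were median centring, equal quantiles, the replicate block, array weights, robust eBayes, each array left out and, chosen after seeing the data, both replicate 3 arrays left out.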

Additional observations from a re-analysis of the deposited data

How the results depend on the processing

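In all 12 alternative settings 0 of the 8 ATG genes passed an adjusted p of 0.05 in limma, the lowest adjusted p being 0.322 for ATG8F with the replicate block. At an unadjusted p under 0.05 there were 0 of 8 in the fit as reported, 2 with the block, 1 without both replicate 3 arrays and 0 to 2 with single arrays left out. ATG8D changed sign under median centring (0.028) and ran from -0.25 to 0.16 with single arrays left out; the other 7 kept their sign in all 12. By locus list the median was -0.040 and 61.9% of probe sets were below empty vector, against -0.10 and 75.0% by symbol. A wider count of probe sets with several genes added 0 members.

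Over all probe sets the count of calls was 7. It was 6 with the replicate block, 7 with median centring, 11 with array weights, 1 with robust eBayes, 0 with equal quantiles and 0 without both replicate 3 arrays. Leaving out single arrays gave 0 to 1, with 0 without 35S-PaWRKY1 replicate 2 and 1 without each other array. At an unadjusted p under 0.05, the limma settings with 0 calls had 1022 (equal quantiles), 1914 (both replicate 3 arrays out) and 1062 (35S-PaWRKY1 replicate 2 out), against 1821. The cause was not tested. With 3 arrays per group the 95% intervals of the ATG genes reach from -0.95 to 0.84.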
